A study of Danio rerio with 3 samples.

Results

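Delta ligands and Notch receptors were followed in zebrafish embryos depleted of FoxH1. The 8 genes were deltaA (dla), deltaB (dlb), deltaC (dlc), deltaD (dld), notch1a, notch1b, notch2 and notch3, picked by name: an oligonucleotide (oligo) on the array belonged to a gene if its symbol, title or RefSeq accession named it. Of the 30 oligos found, 1 was tied to notch1a only through a shared UniGene cluster, and 2 were titled only as similar to a mammalian Notch gene. The 30 were part of 33745 oligos, and all 8 genes were among the 988 named genes that could be tested. FoxH1 is a forkhead transcription factor that works with Smad proteins downstream of Nodal, the signal that induces mesoderm and endoderm at the embryo's margin. On each of 3 two-colour arrays, RNA of 50 pooled FoxH1 morphants was set against RNA of 50 pooled control morphants. A morpholino is an injected antisense molecule that stops a messenger RNA from being translated or spliced. Embryos of both groups were at 40% epiboly, a stage just before gastrulation, and no strain is given in the labels. FoxH1 morphants were labelled with Cy3 on the first pair of arrays, and the dyes were swapped on array 3, where they had Cy5. The design text calls the 3 hybridisations independent, while the array titles have 1 number in common, left unexplained, and are otherwise consecutive.

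Notch receptors are membrane proteins that are activated by Delta or Jagged ligands on a neighbouring cell. The ligand triggers cleavage of the receptor, and the part set free enters the nucleus, joins the DNA-binding protein Rbpj and turns on genes such as those of the her and hey families. In zebrafish the pathway holds back neighbouring cells from becoming neurons (lateral inhibition) and keeps the segmentation clock of the paraxial mesoderm in step. Zebrafish that lack dlc, dld or notch1a form irregular somite borders. Before gastrulation, dlc and dld are known as genes of the margin, where the mesoderm arises.

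On arrays 1, 2 and 3 the morphant column had median spot intensities of 190.7, 146.55 and 383.7, against 467.1, 337.9 and 161.6 in the control column. The ratios below are log2 of morphant over control after loess scaling within each array, so they are relative to spots of like brightness. On array 3 the columns were read as samples and not as dyes, because the local background was higher in the red column at 94.152% of its spots, against 5.457% and 5.044% on arrays 1 and 2. Read this way, ratios correlated between arrays 1 and 2 (r = 0.87 over 26227 oligos), and array 3 ran against both (r = -0.38 and -0.49). The foxh1 transcript had log2 ratios of -0.02, 0.07 and -0.13. That does not check the knockdown, because a morpholino need not lower its target's RNA.

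The ligand dld and the receptor notch3 had the lowest ratios of the 8 genes, near 0.309 and 0.389 of control, followed by dlc at 0.617. The remaining 5 genes averaged between -0.23 and 0.27 on the log2 scale. With 3 arrays and no dye term, none of the 8 passed limma's moderated test with Benjamini-Hochberg adjustment over 988 genes, with adjusted p from 0.395 to 0.984. That test called 0 of 988 genes (0.0%), with a lowest adjusted p of 0.395, although 72 genes, 2 of them members, had an unadjusted p below 0.05. Ratios were below 0 on all 3 arrays for 4 of the 8 genes (dla, dlc, dld and notch3), against 16.3% of all genes, and above 0 on all 3 for 0, against 11.3%. The members' median log2 ratio was -0.21, against 0.06 over all genes. As whole embryos were pooled, fewer cells of a type and less RNA per cell cannot be told apart.

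When a term for the dye was fitted beside the morphant effect, 2 of the 8 genes, dld and dlc, passed as lower in morphants, against 4.86% of all genes. None passed as higher, against 4.15%. The estimate was below 0 for 7 of the 8, against 59.5% of all genes. This fit leaves 1 residual degree of freedom, which comes from the arrays that share a dye orientation. It matches the dye-swapped array exactly, so its SE and adjusted p do not cover how far a repeated swap would vary. It was run under 6 settings of the floor, filter, normalization and choice of oligos, and its calls held in some of them: dld passed in 4, dlc in 2 and notch3 in 0. Over all genes it called 89, but 0 without the floor on dim spots or with median centring, which holds for every dye-term call below. The term also moved the median of all genes to -0.06 and that of the 8 genes to -0.28. The 4 Delta genes had a median of -0.62 in this fit, and the 4 Notch genes one of -0.11. Both groups were mixed. Delta genes ran from -1.59 (dld) to -0.21 (dla), and Notch genes from -1.35 (notch3) to 0.03 (notch2).

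**Figure D1:**
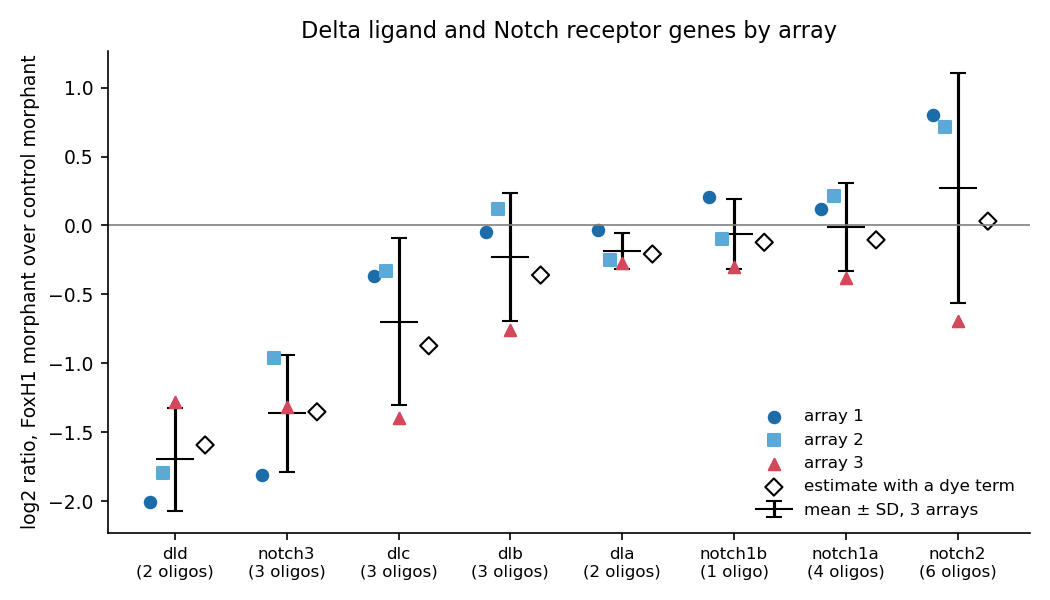
Log2 ratio of FoxH1 morphant over control morphant (vertical axis) for each gene, with the value on each of 3 arrays, the mean ± SD of the arrays (bars) and the estimate with a dye term (diamonds). For dld, notch3 and dlc all 3 arrays lie below 0, while notch2 lies at 0.80 and 0.71 on arrays 1 and 2 and at -0.69 on array 3.

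Among the ligands, dld, which acts in the segmentation clock and in neurogenesis, had log2 ratios of -2.01, -1.80 and -1.28 on arrays 1, 2 and 3. All 3 arrays were low, and the dye swap was the least so. The mean was -1.69 ± 0.37 (SD, n = 3), with an adjusted p of 0.395 by limma with Benjamini-Hochberg adjustment. With the dye term the estimate was -1.59 ± 0.09 (SE), with a limma adjusted p of 0.0379, which ranged from 0.0348 to 0.0967 over the 6 settings. The threshold was missed without the floor on dim spots (0.0967) and with median centring in place of loess (0.0633).

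Both oligos of dld were below 0 on every array. The deposited intensities of its Operon oligo were 1, 49.9 and 159.1 in the morphant column, against 890.2, 479.2 and 164.2 in the control column. On array 3 the raw intensities were close, in a column pair whose medians were 383.7 and 161.6. The value of 1 on array 1 is a placeholder below 2 local background SDs, so the ratio there rests on the floor put in its place. The MWG oligo had 86.5, 64.3 and 185.1 in the morphant column, against 562.8, 457.9 and 166 in the control column, and log2 ratios of -1.36, -1.58 and -1.18. Averaged over both columns, these spots were dim. The average log2 intensity of dld was 7.51, between the medians of Arabidopsis control spots (6.77) and of random-sequence control spots (8.78). This average includes the low morphant values. In the control column both oligos exceeded the column medians of 467.1, 337.9 and 161.6, though only narrowly on array 3.

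The ligand dlc, partner of dld in the segmentation clock, had log2 ratios of -0.37, -0.33 and -1.40, all below 0 and lowest on the dye swap. The mean was -0.70 ± 0.61 (SD, n = 3), with a limma adjusted p of 0.813. With the dye term it was -0.87 ± 0.08 (SE), with a limma adjusted p of 0.0379, and this call was the less stable one. It was lost without the floor (0.0924), with both columns required above background (0.0935, at an estimate of -0.32), with the brightest oligo alone (0.102) and with median centring (0.0633).

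The gene mean of dlc joined 3 oligos with different readings. Their dye-term estimates were -0.38 (Operon), -1.97 (MWG) and -0.27 (Compugen). The dye-term SE of the gene covers neither this spread nor a repeat of the swap. The Operon oligo was bright, with 7067.9, 5682 and 22078.7 in the morphant column, against 36827, 27774.6 and 10332.1 in the control column. Its log2 ratios were -0.69, -0.55 and -0.13. The MWG oligo gave -2.55, -2.39 and -1.46, but its morphant intensity exceeded 2 background SDs on array 3 alone. The Compugen oligo gave 2.13, 1.96 and -2.59, the opposite direction on the swapped array. Its intensities were 1267.3, 1248.9 and 563.5 in the morphant column, against 850.4, 1015.5 and 1262 in the control column. Where only oligos above background in both columns counted, the mean of dlc was 0.02 without a dye term, and with array 3 turned it was 0.23.

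**Figure D2:**
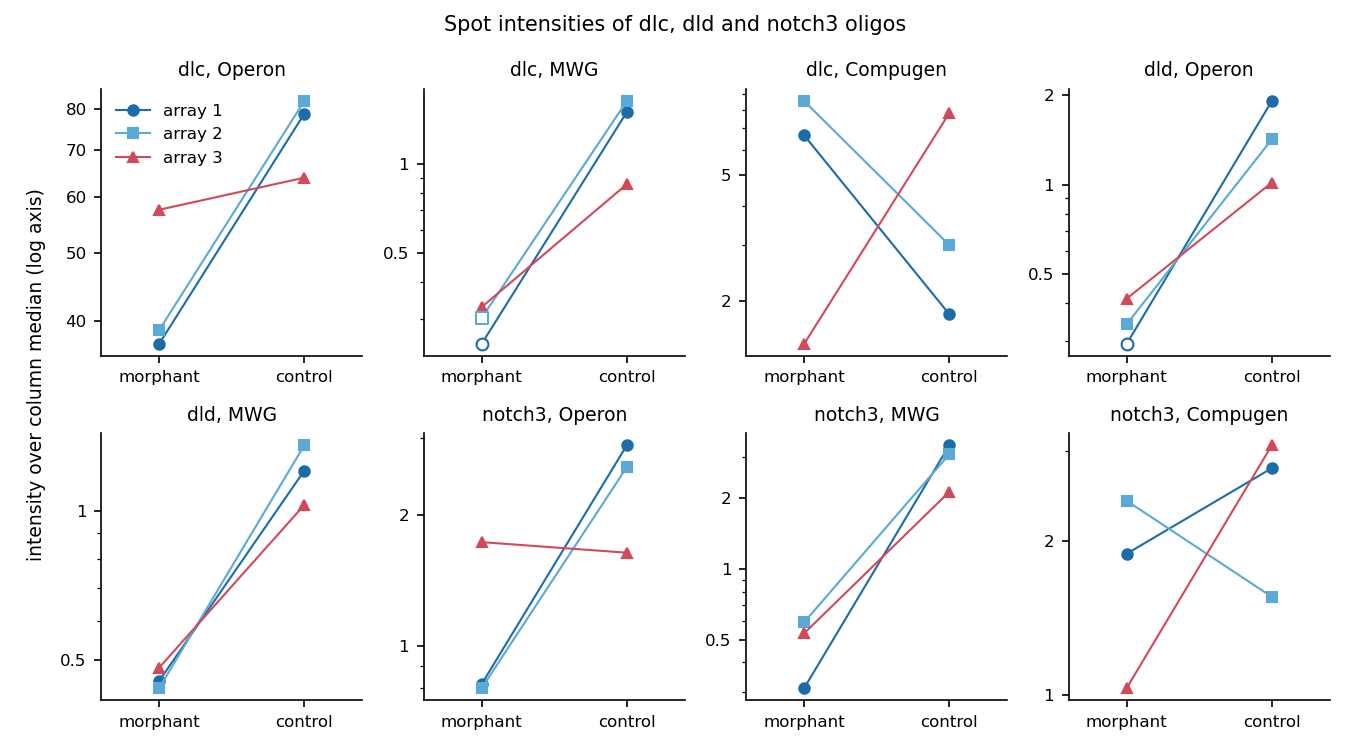
Deposited spot intensity divided by its column's median (vertical log axis, scaled per panel) in the morphant and the control column of each array, for 8 oligos of dlc, dld and notch3. Open symbols mark morphant spots below 2 background SDs, drawn at that floor; the Compugen oligo of dlc slopes one way on arrays 1 and 2 and the other way on array 3.

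The ligand dlb, made by nascent neurons, had log2 ratios of -0.05, 0.12 and -0.75. Arrays 1 and 2 lay near 0 and the swap was low, for a mean of -0.23 ± 0.46 (SD, n = 3) and a limma adjusted p of 0.928. Its MWG oligo was below 0 throughout (-0.78, -0.51 and -1.20), as was its Operon oligo (-0.02, -0.10 and -0.28). Its Compugen oligo had 0.66, 0.96 and -0.79. The dye-term estimate of the gene was -0.36, with a limma adjusted p of 0.103.

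The ligand dla, which acts in lateral inhibition in the neural plate, had log2 ratios of -0.03, -0.25 and -0.27. All 3 arrays lay just below 0, with a mean of -0.18 ± 0.13 (SD, n = 3) and a limma adjusted p of 0.928. Its 2 tested oligos lay on either side: the Operon oligo had 0.24, -0.02 and 0.22, and the Compugen oligo -0.31, -0.48 and -0.76. The third dla oligo was of poor quality on every array and was not tested.

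Among the receptors, notch3 (notch5 in older zebrafish names) had log2 ratios of -1.81, -0.96 and -1.32 from 3 of its 4 oligos. The swapped array lay between the others. The mean was -1.36 ± 0.43 (SD, n = 3), with a limma adjusted p of 0.440. The dye-term estimate of -1.35 ± 0.21 (SE) had a limma adjusted p of 0.0542, and from 0.0528 to 0.214 over the 6 settings.

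The MWG oligo of notch3 had the lowest mean of all member oligos. Its intensities were 59.2, 86.9 and 204 in the morphant column, against 1573.8, 1042.6 and 344.8 in the control column, and its log2 ratios were -3.36, -2.22 and -2.13. All 3 arrays were low, the swap included. The Operon oligo had 155.8, 117.2 and 664.6 in the morphant column, against 1350.8, 870.2 and 264.7 in the control column. It lay low on arrays 1 and 2 and near 0 on the swap, with log2 ratios of -1.70, -1.52 and -0.08. The Compugen oligo had -0.36, 0.86 and -1.74, without a common sign. An oligo known only as similar to human NOTCH3, kept out of the mean, had -0.63, -0.52 and 0.08.

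The receptor notch1a, whose loss disturbs somite borders, had log2 ratios of 0.12, 0.22 and -0.38. The swap alone was below 0, and the mean was -0.01 ± 0.32 (SD, n = 3), with a limma adjusted p of 0.984. The means of its oligos differed by more than that SD. The bright Operon oligo had 15237.8, 11069.1 and 38081.3 in the morphant column, against 38286.1, 35644.7 and 10608.3 in the control column, and log2 ratios of 0.31, 0.00 and 0.66. It was the 1 member oligo of 26 above 0 on all arrays, against 17.0% of all oligos. The MWG oligo had -0.91, -0.90 and -0.24. A Compugen oligo titled notch1a, whose UniGene cluster is shared with notch1b, had 1.70, 2.22 and -1.96. The other Compugen oligo, tied to notch1a through its cluster only, had -0.62, -0.45 and 0.03.

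Its paralog notch1b was measured by 1 of 3 oligos, since the MWG oligos were of poor quality on at least 1 array. That oligo had log2 ratios of 0.20, -0.10 and -0.30, with 1 array above 0 and the others below. The mean was -0.06 ± 0.25 (SD, n = 3), and the limma adjusted p was 0.947.

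The receptor notch2 (its oligos in part carry the older name notch6) had 0.80, 0.71 and -0.69 over 6 oligos. Arrays 1 and 2 were high and the swap was low by about as much, for a mean of 0.27 ± 0.84 (SD, n = 3) and a limma adjusted p of 0.928. The dye-term estimate was 0.03, with a limma adjusted p of 0.809. Its brightest MWG oligo had 4228.7, 3767.2 and 13067.4 in the morphant column, against 11167, 10669.9 and 7011.5 in the control column, and log2 ratios of 0.42, 0.32 and -0.42. Its Compugen oligos reached 1.75, 1.70 and -1.62, and 1.84, 2.30 and -2.18. The Operon oligo ran the other way, at -0.75, -1.02 and 0.55. With array 3 turned, its columns read as dyes, notch2 passed as higher in morphants, and likewise when array 3 was left out.

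In order of their means the genes ran dld, notch3, dlc, dlb, dla, notch1b, notch1a and notch2. Each overlapped its neighbour in this order over the 3 arrays. The order rests on how array 3 is read: with it turned, dld (-0.84) and notch3 (-0.48) stayed lowest, but dlc (0.23) came after dla (-0.0024) and notch1b (0.14), followed by notch1a (0.24), dlb (0.27) and notch2 (0.73).

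Of the 30 oligos, 26 could be tested, and 24 of these entered the gene means. None passed limma with Benjamini-Hochberg adjustment over 26227 oligos, where 0 were called (0.0%), the lowest adjusted p was 0.242 and 3146 had an unadjusted p below 0.05. Ratios were below 0 on all arrays for 10 of the 26, against 17.9% of all oligos. The sign on array 3 was opposite to the sign on both arrays 1 and 2 for 11 of the 26, against 49.6% of all oligos. With the dye term, 18 of the 26 were below 0, against 52.0% of all oligos. By oligo set, the sign on array 3 was opposite for 6 of 8 Compugen, 3 of 9 MWG and 2 of 9 Operon members. All oligos of the sets gave 49.5%, 50.0% and 48.4%. The difference between the sets was not tested.

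The dye effect, the part of the log2 ratio that flips with the dyes, exceeded 1 for 4 of 8 Compugen members, with higher values when the morphant was in Cy3. It did so for 0 of 9 MWG and 0 of 9 Operon members. Over all oligos the shares above 1 were 10.3%, 13.3% and 0.674% for Compugen, MWG and Operon. The 4 oligos belong to dlc (2.32), notch1a (1.96) and notch2 (1.67 and 2.13). In brightness, the mean log2 intensity of both columns, 10 of the 26 oligos did not exceed the median of the random-sequence control spots. The share was 56.4% of all tested oligos, and none of the 5 with a mean below -1 exceeded it. A low morphant value itself lowers this brightness, so the 2 are not independent. In the control column, the MWG oligo of notch3 had 1573.8, 1042.6 and 344.8, against column medians of 467.1, 337.9 and 161.6. The part of brightness in the low ratios was not tested.

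**Figure D3:**
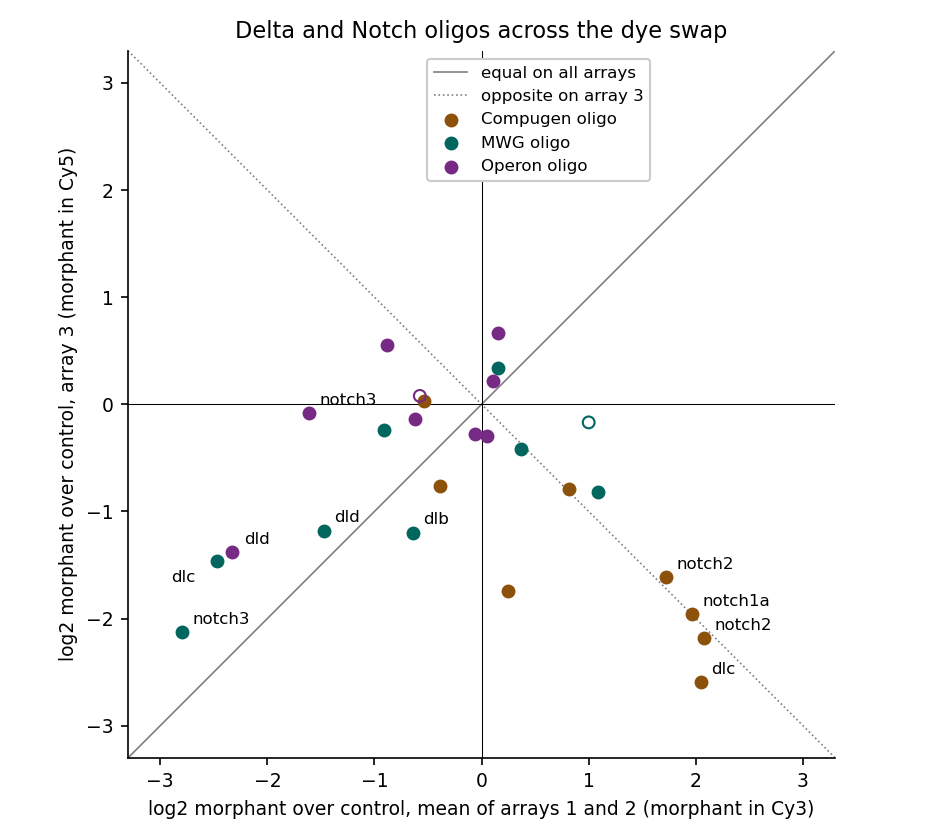
Log2 ratio of morphant over control on array 3 (vertical axis) against the mean of arrays 1 and 2 (horizontal axis) for the 26 tested oligos, coloured by oligo set. Open circles are the 2 oligos named by similarity only. Both oligos of dld and the MWG oligos of dlc and notch3 lie at the lower left, the Operon oligo of notch3 lies at -0.08 on array 3, and Compugen oligos of dlc, notch1a and notch2 lie at the lower right, near the line of opposite values.

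The other Notch pathway genes were sparsely covered, and none passed the test without a dye term. Of 8 further ligands, 3 were tested and 0 passed with it in either direction. With array 3 turned, jag1a (2.55) and jag1b (0.81) passed as higher in morphants, and without array 3 all 3 did. Without array 3 every array has 1 dye orientation, so dye and morphant effects cannot be told apart. The dye-term estimates were -0.54 for jag1a, 0.09 for jag1b and 0.30 for jag2b, beside dye effects of 2.72, 0.78 and 0.27. The means of the 3 ligands were 0.39 ± 0.31 for jag2b, 0.35 ± 0.93 for jag1b and 0.37 ± 3.29 for jag1a (SD, n = 3 each). The spread of jag1a, from 1 oligo, came from values of 1.21, 3.16 and -3.26.

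Of 29 genes that process ligands and receptors, 3 were tested and 0 passed with the dye term. The glycosyltransferase gene lfng, whose product modifies Notch, had 0.69, 0.49 and 0.55, above 0 on all arrays, with a mean of 0.58 ± 0.10. The presenilin gene psen2, for a part of the cleaving enzyme, averaged 0.20 ± 0.36. Of 21 nuclear factors, 3 were tested and 0 passed. The Groucho-type corepressor genes tle3b and tle3a averaged 0.52 ± 0.13 and 0.29 ± 0.18, and the corepressor gene ctbp2a 0.10 ± 0.23 (SD, n = 3 each). Turning array 3 gave 0.21 for lfng and 0.11 for tle3b. Genes for Rbpj and Mastermind proteins were not among those tested.

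Of the 26 her and hey genes, in part transcriptional targets of Notch, 10 were tested. With the dye term, 2 passed as lower (her7 and her9) and 1 as higher (her5) in morphants, against 4.86% and 4.15% of all genes. For her9, 1 oligo gave -1.07, -1.09 and -0.08, near 0 on the swap. Its average log2 intensity of 6.66 lay below the median of Arabidopsis control spots (6.77). The segmentation clock gene her7 had -3.27, -2.58 and -1.51, low on every array, with a mean of -2.45 ± 0.89. Its partner her1, from 1 oligo, had -3.02, -1.09 and -0.74, with a mean of -1.62 ± 1.23 (SD, n = 3 each). For her5, a repressor of neurogenesis at the midbrain-hindbrain border, the values were 1.13, 1.16 and 1.42. All 3 were high, with a mean of 1.23 ± 0.16. With array 3 turned, her7 was -1.45, her1 -1.12 and her5 0.29. The median of the 10 genes without a dye term was -0.15, against 0.06 over all genes.

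**Figure D4:**
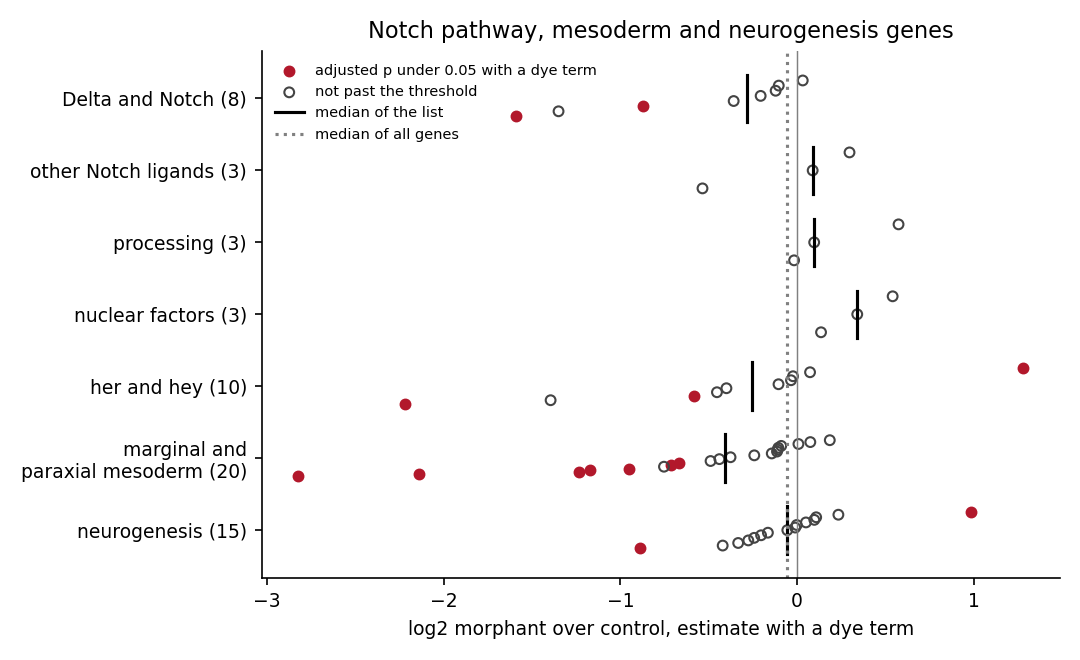
Log2 ratio of morphant over control estimated with a dye term (horizontal axis) for each tested gene of 7 lists, whose sizes stand in brackets. Filled points passed an adjusted p of 0.05 in that fit, and none passed without the dye term; dlc and dld are the filled points among the 8 Delta and Notch genes.

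Genes of the tissue where dlc and dld are known to be active were in part lower. The part of this tissue in the values of dlc and dld was not tested. Of 28 symbols listed for marginal and paraxial mesoderm, where papc is an older name of pcdh8, 20 were tested. With the dye term 7 passed as lower and 0 as higher, against 4.86% and 4.15% of all genes. The median log2 ratio of these 20 without the dye term was -0.28. Of them, 8 were below 0 on all 3 arrays and 1 above, against 16.3% and 11.3% of all genes. The T-box genes tbx6, tbxta and tbx16, which specify mesoderm, averaged -2.77 ± 0.42, -2.08 ± 0.46 and -1.19 ± 0.07 (SD, n = 3 each). These were -0.77, -0.52 and -0.45 with array 3 turned, and none of the 3 passed. The mean of tbx6 rested on 1 oligo. It was -1.78 with oligos usable on at least 2 arrays and -1.49 with poor spots kept. The T-box gene tbx16l had 0.65, 0.73 and -0.87, with a mean of 0.17 ± 0.90 (SD, n = 3). Its dye-term estimate was -0.09. Of 22 genes of neurogenesis, 15 were tested. With the dye term, 1 passed as lower (atoh1a) and 1 as higher (sox19b). The median of the 15 was 0.05 without the dye term and -0.06 with it. The values of atoh1a were 0.0041, -0.13 and -1.72, near 0 on arrays 1 and 2 and low on the swap alone. Its average log2 intensity of 6.86 was close to the median of Arabidopsis control spots (6.77). The SoxB1 gene sox19b averaged 0.90 ± 0.33 (0.082 with array 3 turned), but 0.21 with its brightest oligo alone. The neural genes onecut1 and ascl1a averaged -0.38 ± 0.34 and -0.30 ± 0.19.

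Some markers of other cell layers also passed in the fit with a dye term, which called 4.86% of all genes lower and 4.15% higher. In the enveloping layer, the embryo's outer epithelium, 6 of 12 genes were tested. With the dye term 2 passed as lower and 0 as higher, and the median without it was -0.62. Of the 6 genes, 4 were below 0 on all 3 arrays and 1 above, against 16.3% and 11.3% of all genes. Those with the smallest p were the keratin genes krt4 and cyt1 and the claudin gene cldnf. They averaged -1.26 ± 0.09, -0.76 ± 0.44 and -0.81 ± 0.27 (SD, n = 3 each). For the yolk syncytial layer, 5 of 9 were tested, with 2 passing as lower (gata5 and sox32) and 1 as higher (fn1a). Its genes mxtx1, mxtx2, hnf4a and slc26a1 were not tested. The median of the 5 tested genes without the dye term was -0.76. Some of these also mark endoderm: gata5 averaged -1.11 ± 0.21 and sox32 -1.22 ± 0.50, while fn1a averaged 0.58 ± 0.11. With the brightest oligo alone, gata5 was -1.42, sox32 -0.46 and fn1a 0.65. Of 8 germ cell genes 3 were tested, with 0 passing as lower and 1 as higher: dazl averaged 1.77 ± 0.47, nanos3 0.70 ± 0.82 and ddx4 0.09 ± 0.30. With array 3 turned, krt4 (-0.35), cyt1 (-0.49), cldnf (-0.11), gata5 (-0.51), sox32 (-0.022), fn1a (0.27) and dazl (0.31) lay nearer 0. By contrast, nanos3 (0.87) then lay further from 0, and ddx4 (-0.19) changed sign. The part of these layers in the values of dld, dlc and notch3 was not tested.

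The genes most like each member were taken as those at the smallest Euclidean distance over the log2 ratios of the 3 arrays. With 3 points per gene this is a description, and close pairs share arrays and dyes. For dld these were the sodium pump subunit gene atp1b1a (distance 0.222) and the Ets factor gene etv4 (0.460). For notch3 they were hoxb5a (0.398) and elf2b (0.619), and for dlc atp1b3a (0.364) and nr5a5 (0.375). The flatter genes had closer matches: efnb2a (0.125) and her8a (0.134) for dlb, ran (0.101) and hoxc10a (0.112) for dla, and msx2a (0.144) and pdgfra (0.167) for notch1b. For notch1a the nearest were her6 (0.0598) and lmnb2 (0.0783), and for notch2 hoxb6b (0.0999) and rack1 (0.128).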

How the data were processed

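RNA of paired pools was co-hybridised on 3 arrays; the labels give the groups and dyes. The design text speaks of amplified RNA, the labelling protocol of reverse-transcribed total RNA. No scanner or image software is named. Each array lists, per the file headers, a red and a green spot intensity with local background, a ratio and a quality score. The authors had already subtracted the background from the deposited intensity. The authors' deposited ratio is red over green divided by 1 constant per array (2.8186, 2.7008 and 0.3985), and their deposited log2 matrix is minus log2 of it. The authors' quality score was 0 at 16.706%, 16.76% and 14.45% of spots, which were left out.

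Intensities below 2 background SDs were raised to 2 SDs, a floor chosen after placeholders of 1 were seen. Log2 of green over red, taken as morphant over control on every array, was normalized by loess (span 0.3). Tested oligos had usable spots on all 3 arrays and exceeded 2 SDs in either column on at least 2. Oligos were averaged per gene; those known only by similarity to a mammalian gene were left out. Symbols came from the arrays' titles and RefSeq accessions (693 of 735 matched, table of assembly GRCz12tu), and 8.784% of oligos had one. In that table the symbol dld stands for another gene, so deltaD was named from the array titles. Oligo sequences were not used here.

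Tests used limma 3.58.1 (lmFit, eBayes; R 4.3.3) over all genes or oligos with adjustment by Benjamini-Hochberg (threshold 0.05); the number of arrays limits precision. Figures used Python 3.11.15 and matplotlib 3.10.9. The members, lists and tests were chosen with earlier results of these data known. Named genes are the 8 members, per list 4 at most that pass or, failing that, the 3 with the smallest p, and the 2 nearest genes of each member; her9, atoh1a and foxh1 were added after their values were seen, and 1 gene named by this rule is not reported here. Alternatives covered the direction of array 3, a dye term, normalization, background, filters, naming and oligo choice, and leaving out an array.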

Additional observations from a re-analysis of the deposited data

How the results depend on the processing

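Without a dye term, 0 genes and 0 oligos passed under the background, normalization, filter, quality, naming and oligo settings, the authors' matrix included. Genes past the threshold came to 316 with array 3 turned (3268 oligos), 89 with the dye term, 75 with it and both columns above background, 41 with it and no Compugen oligos, and 23 with it and the brightest oligo, against 0 with it and no floor or median centring. Leaving out 1 array gave 0 to 540 genes and 0 to 9162 oligos, the upper values without array 3, when every array has 1 dye orientation; dld, dlc and notch3 (lower) and notch2 (higher) then passed. The floor, the oligo set, the notch1a oligo with a conflicting name and the combinations with the dye term were chosen after seeing the data. Over all settings dld ranged from -2.55 to -0.84 and notch3 from -1.84 to -0.41, while dlc ranged from -1.97 to 0.23. The dye term could not be fitted with a test when an array was left out.

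The named genes her9, atoh1a and tbx16l were not followed over the settings. Of the others, these log2 means changed sign, and the cause was not tested. With array 3 turned (median of all genes 0.24): dlc 0.23, dlb 0.27, notch1b 0.14, notch1a 0.24, foxh1 0.063, tle3a -0.043, ctbp2a -0.070, ddx4 -0.19, atp1b3a 0.39, nr5a5 0.20, efnb2a 0.31, her8a 0.21, ran 0.035, hoxc10a 0.028, msx2a 0.20, pdgfra 0.072, her6 0.26 and lmnb2 0.21. Leaving out 1 array gave ranges that cross 0 for dlb (-0.40 to 0.035), notch1b (-0.20 to 0.054), notch1a (-0.13 to 0.17), foxh1 (-0.075 to 0.028), jag1b (-0.035 to 0.86), jag1a (-1.02 to 2.19), ddx4 (-0.073 to 0.22), efnb2a (-0.40 to 0.092), msx2a (-0.19 to 0.10), pdgfra (-0.14 to 0.039), her6 (-0.15 to 0.19), lmnb2 (-0.17 to 0.12) and hoxb6b (-0.041 to 0.77). With the brightest oligo: dlb 0.28, dla 0.15, notch1a 0.33, ddx4 -0.036, her8a 0.45, pdgfra 0.17 and hoxb6b -0.092. With it and the dye term: dlb 0.011, dla 0.16, notch1a 0.41 and notch2 -0.023. Without Compugen oligos: dla 0.15 (0.16 with the dye term) and msx2a 0.010. With the dye term: jag1a -0.54 and hoxb6b -0.0080. With both columns above background: dlc 0.023. With print-tip loess: notch1a 0.010 and her6 0.064. With normexp: her6 0.0051. With poor spots kept: pdgfra 0.084 and hoxb6b -0.038. With oligos usable on 2 arrays pdgfra was 0.19, and without oligos named by UniGene cluster notch1a was 0.098.

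Each array is itself 1 morphant and control pair, so the ratio already is the paired difference and no further pairing was added. With 3 arrays and 1 swap, a dye effect of a single oligo can be estimated but not tested apart from array 3, and spots below 2 background SDs give no more than a bound.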
